A study of Mus musculus with 2 samples.

Results

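The genes for the proteins of the cytosolic ribosome were followed through H3K27ac ChIP-seq peak lists of mouse MA9 leukaemia cells. Members were taken by symbol: protein-coding genes on chromosomes 1 to 19 of the mm10 gene table named Rpl or Rps with digits and at most 1 final letter, leaving out the Rps6k kinase genes and -ps names. The rule found 73 genes, 44 Rpl genes of the large subunit and 29 Rps genes of the small subunit, among 20661 protein-coding genes on these chromosomes. No measured value entered the choice. It brings in the paralogues Rps27l, Rpl3l, Rpl10l, Rpl32l and Rpl39l and leaves out ribosomal protein genes with other kinds of name and those on the X chromosome, which are described apart.

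H3K27ac, acetylation of histone H3 at lysine 27, marks active promoters and enhancers. The groups were Gata2 KO cells (Gata2 -/-, 1 library) and Gata2 f/f cells (floxed alleles, 1 library). All cells were MA9 acute myeloid leukaemia cells from the marrow of primary mice. They received Cre or, as control, MIT, were sorted by GFP and tdTomato and were cultured for 7 to 9 days with IL-3, IL-6 (10 ng/mL) and SCF (20 ng/mL). The labels give no age, strain or number of animals. With 1 library per genotype there is no replicate error, and every difference below describes these 2 libraries only.

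Cytosolic ribosomes are built from ribosomal RNA and a large set of proteins, each needed in like amounts, and the genes for these proteins lie scattered over the genome as short, strongly transcribed units. In mammals many of their transcripts begin with a C and a run of pyrimidines, the terminal oligopyrimidine (TOP) motif, through which mTOR signalling sets their translation. Several of the genes also carry small nucleolar RNAs in their introns.

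The KO list held 37234 peaks on chromosomes 1 to 19, X and Y and the f/f list 34272, with median widths of 1166 and 1207 bp and a median -log10 p, the peak caller's significance, of 9.41 and 12.2. The libraries also stood apart at sex-linked genes. Of the Y-linked genes checked, Kdm5d, Eif2s3y and Uty carried gene-end peaks in the KO list only, and Ddx3y in neither list. Xist, the gene of the X-silencing RNA, had a gene-end peak in the f/f list only. Genotype cannot be told apart from what separates the libraries at these genes. At 6 chromosome starts 1 list had no peak where the other had at least 10, in f/f on chromosomes 6, 7, 18 and 19 and in KO on chromosomes 4 and 13. These blank starts held 260 protein-coding genes, 3 of them ribosomal protein genes, and the main counts are also given without them. Gata2 itself had 2 gene-end peaks in each list, the leading 946 bp wide in KO and 1185 bp in f/f. Of Gata2 and 5 kb on both sides, 7.68% lay under peaks in KO and 21.9% in f/f. None of these values checks a deletion of coding sequence. Of 11 markers of MA9 leukaemia, 8 had a gene-end peak in KO and 10 in f/f, Hoxa9 and Meis1 in f/f only and Mef2c in neither. Gene-end peaks in KO and in f/f were found at 1 and 1 of 7 erythroid markers (Klf1), 1 and 1 of 4 B cell markers (Cd79a), 1 and 1 of 5 T cell markers (Cd4) and 0 and 1 of 6 stromal and endothelial markers (Pecam1). The part of cell makeup in the results was not tested.

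Promoter sequences show what these genes have in common at their starts. RefSeq promoters (GRCm38.p6, the same build as mm10, 250 bases before to 50 bases after the start) matched 54 of the 73 genes. Among the entries missing were those of Rpl7, Rps20, Rpl21, Rpl32, Rpl29, Rps27a, Rpl23a, Rps29, Rpl30, Rpl8, Rpl3, Rpl36, Rps14 and Rpl17. The stretches below run from 80 bases before the first listed start to 20 bases from it on. Capitals mark a C within 5 bases of the start with at least 4 pyrimidines after it, which is the TOP pattern, or the ETS-type letters CCGGAAG, the YY1-type letters AAGATGG or the TATA box letters TATAAA on either strand, and a stretch with no capitals holds none of them. Rpl11, Rps15, Rps27l, Rps26 and Rpl19 are shown as strongly marked genes, Rpl13, Rpl12 and Rps27 for their change in peak width, Rps9 and Rpl28 for lying in a blank start, and Rpl39l, Rpl10l and Rpl32l as paralogues without a peak.
Rpl11 (chr4:136053374-136053473, minus strand): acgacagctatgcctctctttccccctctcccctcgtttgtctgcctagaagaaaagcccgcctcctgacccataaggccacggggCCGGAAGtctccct
Rps15 (chr10:80292351-80292450, plus strand): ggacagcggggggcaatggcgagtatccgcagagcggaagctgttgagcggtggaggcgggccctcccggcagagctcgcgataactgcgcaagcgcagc
Rps27l (chr9:66946006-66946105, plus strand): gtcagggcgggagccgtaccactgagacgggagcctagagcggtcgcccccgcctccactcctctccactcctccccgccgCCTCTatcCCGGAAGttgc
Rps26 (chr10:128626487-128626586, minus strand): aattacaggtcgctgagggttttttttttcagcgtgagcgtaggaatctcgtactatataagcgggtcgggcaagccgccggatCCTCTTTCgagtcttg
Rpl19 (chr11:98026630-98026729, plus strand): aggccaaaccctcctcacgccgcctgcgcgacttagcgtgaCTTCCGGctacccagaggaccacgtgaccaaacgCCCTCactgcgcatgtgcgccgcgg
Rps9 (chr7:3703961-3704060, plus strand): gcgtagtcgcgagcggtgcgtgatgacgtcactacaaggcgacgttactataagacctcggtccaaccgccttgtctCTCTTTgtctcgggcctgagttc
Rpl28 (chr7:4792885-4792984, plus strand): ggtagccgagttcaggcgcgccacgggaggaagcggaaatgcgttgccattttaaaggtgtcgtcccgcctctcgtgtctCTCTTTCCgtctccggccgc
Rpl13 (chr8:123102270-123102369, plus strand): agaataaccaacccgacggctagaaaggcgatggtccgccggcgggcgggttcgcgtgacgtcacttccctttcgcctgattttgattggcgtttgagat
Rpl12 (chr2:32961632-32961731, plus strand): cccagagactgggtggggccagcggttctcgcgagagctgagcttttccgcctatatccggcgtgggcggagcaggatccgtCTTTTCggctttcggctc
Rps27 (chr3:90213629-90213728, minus strand): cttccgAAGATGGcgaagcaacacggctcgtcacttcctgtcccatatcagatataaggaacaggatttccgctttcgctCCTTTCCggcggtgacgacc
Rpl39l (chr16:10170148-10170247, plus strand): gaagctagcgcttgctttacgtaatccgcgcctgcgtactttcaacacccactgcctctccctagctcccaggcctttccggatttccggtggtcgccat
Rpl10l (chr12:66284382-66284481, minus strand): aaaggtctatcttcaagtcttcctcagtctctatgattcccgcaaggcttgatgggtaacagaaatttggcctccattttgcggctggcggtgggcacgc
Rpl32l (chr10:20208359-20208458, plus strand): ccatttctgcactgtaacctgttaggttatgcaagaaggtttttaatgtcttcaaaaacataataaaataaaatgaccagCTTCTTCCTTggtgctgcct

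A TOP pattern was found in 26 of 54 ribosomal protein promoters (48.1%), against 19.04% of 16456 protein-coding promoters of the same length. Rpl28 has it at the start itself, a run of 8 bases, and Rps27 likewise with 7. CCGGAAG, the long form of the ETS core bound by GABP, was present in 21 of 54 (38.9%), against 12.2% of all promoters. Its core GGAAG, which every CCGGAAG contains, was in 51 (94.4%), against 71.8%. AAGATGG was in 8 (14.8%), against 6.42%, and the GC box GGGCGG in 29 (53.7%), against 47.3%. TATAAA was in 3 (5.56%), against 13.5%, and the GATA core AGATAA in 2 (3.70%; Rpl24 and Rpl3l), against 9.87%. These 2 counts are small, and whether the shares are lower than the background was not tested. Motifs other than the TOP pattern were sought on both strands of the whole promoter and may overlap each other. A match is only a match of letters, and no match says nothing about a factor's binding.

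Most ribosomal protein genes carried H3K27ac at a gene end in both libraries. Genes with a peak 1000 bp or less from either end are called marked here. By this measure 68 of 73 (93.2%, 95% Wilson interval 84.9 to 97.0) were marked in KO, where 51.8% of all protein-coding genes were, and 66 of 73 (90.4%, 81.5 to 95.3) in f/f, where 51.9% were. In both lists 65 were marked (89.0%), against 49.1% of all genes, and 4 were marked in neither. The intervals cover counting error only. Outside the blank starts 66 of 70 were marked in KO, 65 in f/f and 65 in both, against 52.0%, 52.5% and 49.7% of all genes there. Of the Rpl genes 38 of 44 and of the Rps genes 27 of 29 were marked in both lists. The leading peak of a gene, that of highest -log10 p among its gene-end peaks, overlapped between the lists at 65 of these 65 genes, against 98.6% of all genes marked in both.

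The other 8 genes were of 3 kinds. Rps20, Rps9 and Rpl28 lie in blank chromosome starts. Rps20, a protein of the small subunit's head (chromosome 4, 3831584 to 3835655), had no peak in KO and a peak of 1421 bp in f/f with a -log10 p of 122.8, at percentile 95.3 of its list. It ends 624 kb before the first KO peak of that chromosome. Rps9 (chromosome 7, 3703954 to 3706897), a protein that contributes to decoding accuracy, had a KO peak of 2609 bp at percentile 76.5, and f/f lacked one. Rpl28 (chromosome 7, 4792965 to 4794547) had a KO peak of 1809 bp at percentile 82.0, and f/f again lacked one. The first f/f peak on chromosome 7 lies 6788 and 5700 kb past these genes, and 98 KO peaks lie before it. A gene-end peak in 1 list with none within 5000 bp in the other was therefore found for 2 ribosomal protein genes in KO (2.74%), against 1.65% of all genes, and for 1 in f/f (1.37%), against 1.88% of all genes. Outside the blank starts the counts were 0 and 0 of 70 genes, against 1.22% and 1.85% of all genes there, shares at which a count of 0 is near the background. Missing peaks over a whole chromosome start and a missing mark at the gene cannot be told apart.

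Rpl19, which forms a bridge between the subunits, and Rpl17, which lines the exit tunnel, were marked inside the gene rather than at the ends the gene table gives. Rpl19 (chromosome 11, 98022003 to 98030493) had 1 gene-end peak in KO, 472 bp wide with a -log10 p of 7.87, which also lies at the end of the neighbouring calcium channel gene Cacnb1, and none in f/f. Its listed start lies within the gene, and the peak there was 1412 bp wide in KO and 1470 bp in f/f, at percentiles 99.5 and 99.9 of the lists. Rpl17 (chromosome 18, 74998978 to 75003381) had no gene-end peak, but both lists had a peak inside it, of 1063 bp in KO and 1177 bp in f/f, each at or above percentile 99.7. Both genes thus had a strong peak inside them in both libraries. The gene-end count misses Rpl17 in both lists and Rpl19 in f/f. In KO it counts Rpl19 only through the peak that also lies at the end of Cacnb1.

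The paralogues differed among themselves. Rps27l, a paralogue of Rps27 that in human cells is a p53 target, was among the most strongly marked, with a -log10 p of 107.6 in KO and 184.1 in f/f and widths of 1488 and 1468 bp. Rpl10l and Rpl39l, known from the testis, and Rpl32l had no peak within 5000 bp of their ends in KO or in f/f. Rpl3l, the form of Rpl3 of striated muscle, had a gene-end peak of 2891 bp in KO and 2382 bp in f/f. That peak lies at its downstream end, beginning 7636 bp (KO) and 8001 bp (f/f) past its first listed start, and within 1000 bp of the end of its neighbour Msrb1, and no peak came within 1000 bp of the start of Rpl3l in either list.

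The marked genes stood high in each list by strength. Percentiles by -log10 p were taken within a list, since the heights of peaks cannot be compared between lists. The leading peaks of ribosomal protein genes had a median percentile of 93.8 in KO and 95.5 in f/f, where the leading peaks of all marked protein-coding genes had 85.0 and 84.4. In the strongest 10% of the KO list lay 46 of the 73 genes, against 18.2% of all genes, and in that of the f/f list 55, against 17.2% of all genes. These shares also count genes without a peak. Among marked genes alone they were 67.6% in KO and 83.3% in f/f, against 35.1% and 33.2% of all marked protein-coding genes. Outside the blank starts the strongest 10% held 46 and 54 of 70 genes, against 18.3% and 17.4% of all genes there. Below the median of the list lay only Rpl19 in KO, at percentile 44.0, and no marked member in f/f.

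**Figure D1:**
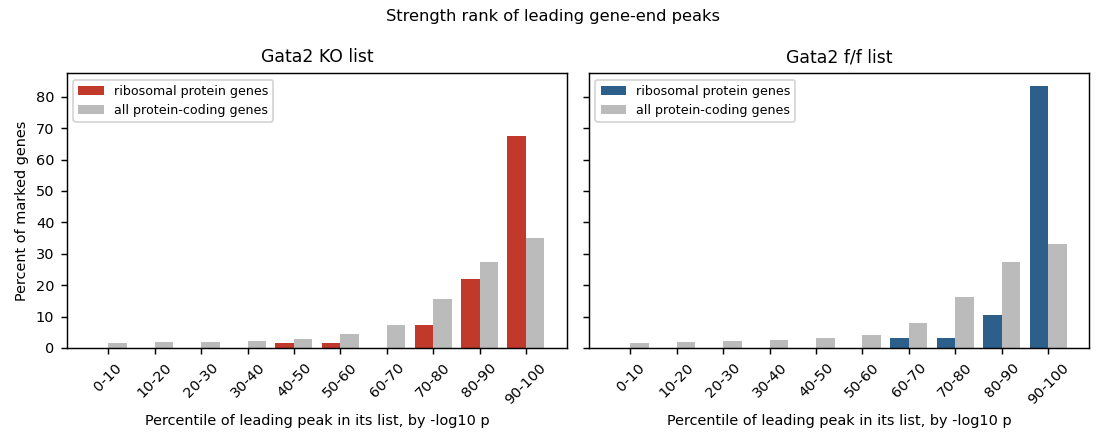
Leading gene-end peaks by their percentile (-log10 p) within the Gata2 KO list and the Gata2 f/f list, 1 library each. Bars give the percent of marked ribosomal protein genes (coloured) and of all marked protein-coding genes (grey) per band of 10 percentiles. In the highest band fall 46 of 68 ribosomal protein genes in KO, against 35.1% of all marked genes. In f/f 55 of 66 fall there, against 33.2%.

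Among the 5 strongest leading peaks in KO were those of Rpl11, Rps27l, Rps15 and Rps13, with a -log10 p of 110.0, 107.6, 102.7 and 99.5. Among the 5 strongest in f/f were those of Rpl21, Rpl5, Rpl32 and Rps15, with 214.1, 195.4, 194.3 and 193.6. Rps15, a protein of the small subunit's head, was in both sets. Rpl11 and Rpl5 enter the large subunit together with 5S ribosomal RNA and can hold MDM2 away from p53. Rpl11 stood at percentile 99.5 in KO and 99.3 in f/f, and Rpl5 at 96.3 and 99.4. Widths were 1318 bp in KO and 1426 bp in f/f at Rpl11, and 1478 and 1283 bp at Rpl5.

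At the weak end, apart from Rpl19 and Rpl3l, stood Rps25, a small subunit protein used by some viral entry sites. Its leading peak had a -log10 p of 12.4 in KO and 19.2 in f/f, at percentiles 58.6 and 61.9. The Rps25 peak began 647 bp past the listed start in KO and 550 bp past it in f/f, so that the start itself lay outside any peak, and it was also within 1000 bp of the ends of Ccdc84 and Trappc4. Rpl3, next to the peptidyl transferase centre, and Rpl13a, which in human cells can leave the ribosome to silence mRNAs, had wide but lower-ranked peaks. Rpl3 had 2771 bp at percentile 73.4 in KO and 2980 bp at 78.5 in f/f, and Rpl13a 2962 bp at 75.6 and 2859 bp at 76.5. Wide peaks ranked lower more generally. Ribosomal protein genes with a peak of at least 2000 bp had a median percentile of 86.0 in KO (17 genes) and 91.3 in f/f (18 genes), and those with a peak under 1500 bp 95.9 (24 genes) and 97.2 (18 genes). Over all marked genes the same widths gave 81.3 and 81.5, and 84.4 and 82.9. Width and -log10 p come from the same peak call. The part of width in the rank, and in the choice of the leading peak, was not tested.

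The leading peaks were also wider than usual for gene ends. Their median width was 1754.5 bp in KO (quartiles 1445 and 1986) and 1703.5 bp in f/f (1475 and 2029), against 1448 and 1437 bp for all marked protein-coding genes. They stood at median width percentiles of 80.02 in KO and 78.5 in f/f, where all marked genes had 67.0 and 65.7. The widest in KO were those of Rpl18 (4141 bp), Rpl13 (3147 bp), Rpl13a (2962 bp), Rpl3l (2891 bp) and Rpl12 (2815 bp). The widest in f/f were those of Rpl3 (2980 bp), Rpl13a (2859 bp), Rpl18 (2797 bp), Rpl8 (2702 bp) and Rpl7 (2623 bp). No broad domain beyond these sizes was found, while the widest leading peaks of all genes were 9914 bp in KO and 15807 bp in f/f. The genes are short, with a median length of 3175 bp against 17491 bp for all genes. Of the gene and 5 kb on both sides, a median of 15.3% lay under peaks in KO and 14.3% in f/f. Over all genes, marked or not, the medians were 3.525% and 3.405%. The parts of gene length and of the presence of a peak in this difference were not tested. A single peak covered the whole gene at 0 genes in KO and at 3 in f/f (Rps27, Rpl41 and Rpl8), and at 85 and 95 of all genes.

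Widths differed little between the libraries. Over the 65 genes with overlapping leading peaks, the median log2 ratio of KO to f/f width was -0.04 (quartiles -0.12 and 0.06), against -0.01 (-0.11 and 0.09) over all 9994 such genes. The KO peak was wider at 29 genes and narrower at 36, where over all genes it was wider at 4636 and narrower at 5324, a like balance. It was within 1.1-fold of the f/f width at 41 genes (63.1%), against 60.5% of all genes. The share of bases common to both leading peaks, of all bases under either, had a median of 91.0% (quartiles 84.2 and 93.2), against 90.2% for all genes, from 27.7% at Rpl18 to 97.8% at Rpl15. At least 1.5-fold wider in KO were 3 genes, against 4.60% of all genes, and at least 1.5-fold narrower were 3, against 4.51% of all genes, which is near the background in both directions.

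**Figure D2:**
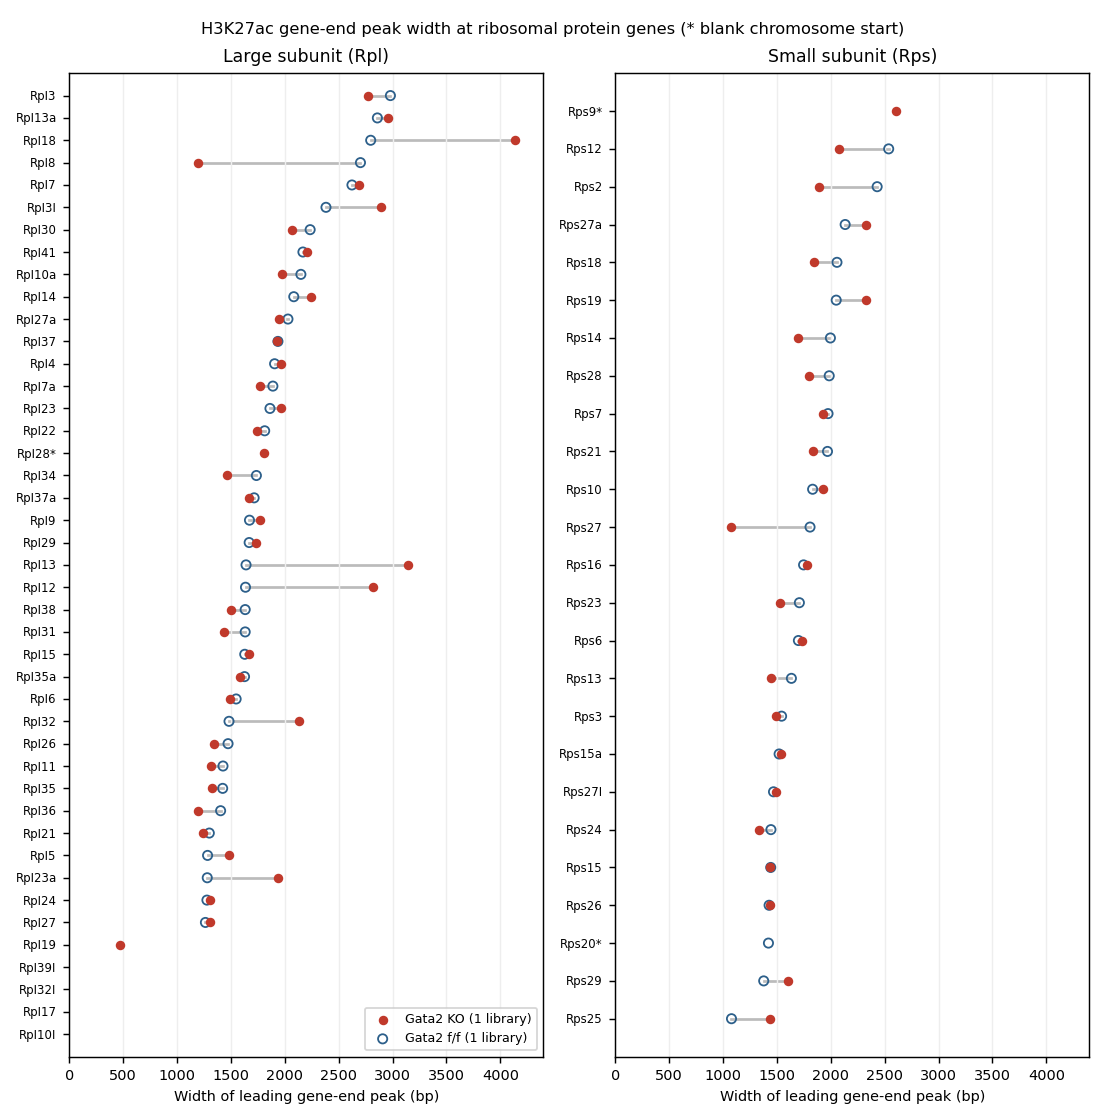
Width in bp of the leading gene-end H3K27ac peak at each ribosomal protein gene in Gata2 KO (filled) and Gata2 f/f (open), 1 library each, with Rpl genes left and Rps genes right, ordered by f/f width, for 68 of the 73 genes. Lines join both libraries, and an asterisk marks a gene in a blank chromosome start. Most pairs lie close together while Rpl8, Rpl13, Rpl18 and Rpl12 are far apart.

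The 3 genes past 1.5-fold wider in KO code for proteins of the large subunit. Rpl13 (chromosome 8, 123102350 to 123105244) had 3147 bp in KO and 1640 bp in f/f, a ratio of 1.92. Its KO peak began 1768 bp before the start and the f/f peak 228 bp before it, while the downstream edges lay 1378 and 1411 bp past the start. Rpl12, at the base of the stalk where translation factors bind (chromosome 2, 32961712 to 32964045), had 2815 bp in KO and 1635 bp in f/f, a ratio of 1.72. Here too the added width lay upstream, with the edge 1599 bp before the start in KO and 133 bp in f/f, on the side of the neighbour Lrsam1. Rpl23a, at the mouth of the exit tunnel (chromosome 11, 78180935 to 78183584), had 1932 and 1280 bp, a ratio of 1.51. Just short of the threshold was Rpl18 (4141 bp in KO and 2797 bp in f/f, ratio 1.48). Its log2 ratio of 0.57 was 1.56 with a 500 bp window and -0.02 with the widths of all gene-end peaks summed, so that its direction rests on which peak is taken. The KO peak of Rpl18 began 3182 bp before its listed start, towards the neighbour Sphk2, and overlapped 2 f/f peaks, of which the further upstream had a -log10 p of 3.73. Rpl12 and Rpl18 stood at percentiles 74.7 and 80.3 by -log10 p in KO, and at 94.1 and 96.2 in f/f.

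Among the genes at least 1.5-fold narrower in KO were Rpl8 and Rps27. Rpl8, a core protein of the peptidyl transferase centre (chromosome 15, 76904071 to 76906318), had 1191 bp in KO and 2702 bp in f/f, a ratio of 0.441. Both peaks began near the gene's lower coordinate, at 76904069 in KO and 76903979 in f/f, and they ended at 76905259 and 76906680. Rps27, a zinc finger protein of the small subunit (chromosome 3, 90212667 to 90213648), had 1078 and 1807 bp, a ratio of 0.597. Its KO peak reached 856 bp past the start and the f/f peak 1554 bp, so that the difference lay on the downstream side. Next in this direction, at lesser changes, came Rps2 (1891 bp in KO and 2430 bp in f/f) and Rps12 (2077 and 2537 bp). None of these differences has a replicate check.

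Other genes whose proteins have known roles differed by less than 1.5-fold in width, and of those named here Rps19 and Rps14 lay outside 1.1-fold. The S6 kinase target Rps6 had 1733 bp in KO and 1699 bp in f/f. Rps19, whose gene is mutated in human Diamond-Blackfan anaemia, had 2327 and 2050 bp, and Rps14, lost in the human 5q- syndrome, had 1691 and 1996 bp. Rpl38, which in mouse embryos is needed for translation of Hox mRNAs, had 1499 and 1632 bp. Rps27a, which is made as a fusion to ubiquitin, had 2323 and 2133 bp. Rpl4, of the exit tunnel, had 1962 and 1905 bp, and Rpl24, of a bridge between subunits, 1302 and 1277 bp. Each of these stood in the upper part of its list by -log10 p in both lists.

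Measured from the start of the gene, most peaks ran further downstream than upstream. Of the 54 genes with a listed start, 50 had a peak within 1000 bp of it in KO and 48 in f/f, against 51.5% and 52.0% of 16456 genes. The start lay inside the peak at 47 genes in KO and 47 in f/f, against 48.1% and 49.0% of all genes. The peaks reached a median of 1172 bp downstream in KO (quartiles 988 and 1284) and 1255 bp in f/f (1121 and 1416). Those over the starts of all protein-coding genes reached 840 bp in KO (658 and 1074) and 831 bp in f/f (667 and 1040). Upstream, ribosomal protein genes had medians of 546 bp in KO and 444 bp in f/f, against 567 and 560 bp for all genes. The greater reach was thus on the downstream side of the start. Other genes whose start peak lay in the strongest 10% of both lists numbered 2453. Their median downstream reach was 905 bp in KO and 893 bp in f/f. The 33 ribosomal protein genes in the strongest 10% of both lists had 1172 and 1255 bp. Strength was not matched within this 10%, and its part in the reach was not tested.

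Upstream reach varied more than downstream reach among the genes, as it did over all protein-coding genes. Upstream quartiles were 303.5 and 794 bp in KO and 187.5 and 695 bp in f/f at ribosomal protein genes. Over all genes they were 291 and 865 bp in KO and 304 and 852 bp in f/f. Rpl24, Rps24, Rps3, Rps15, Rpl6, Rpl31, Rpl38 and Rpl11 had peaks that began at most 80 bp before the start in KO and at most 166 bp in f/f, and Rpl27 had 24 bp upstream in f/f and a peak beginning 6 bp past the start in KO. Rpl14, Rps12 and Rpl4 reached 1146, 1139 and 1073 bp upstream in KO and 967, 1135 and 1079 bp in f/f. Genes with another protein-coding gene within 1000 bp upstream had medians of 802 bp in KO and 656 bp in f/f (11 genes), and those without had 456 and 416 bp (36 genes).

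**Figure D3:**
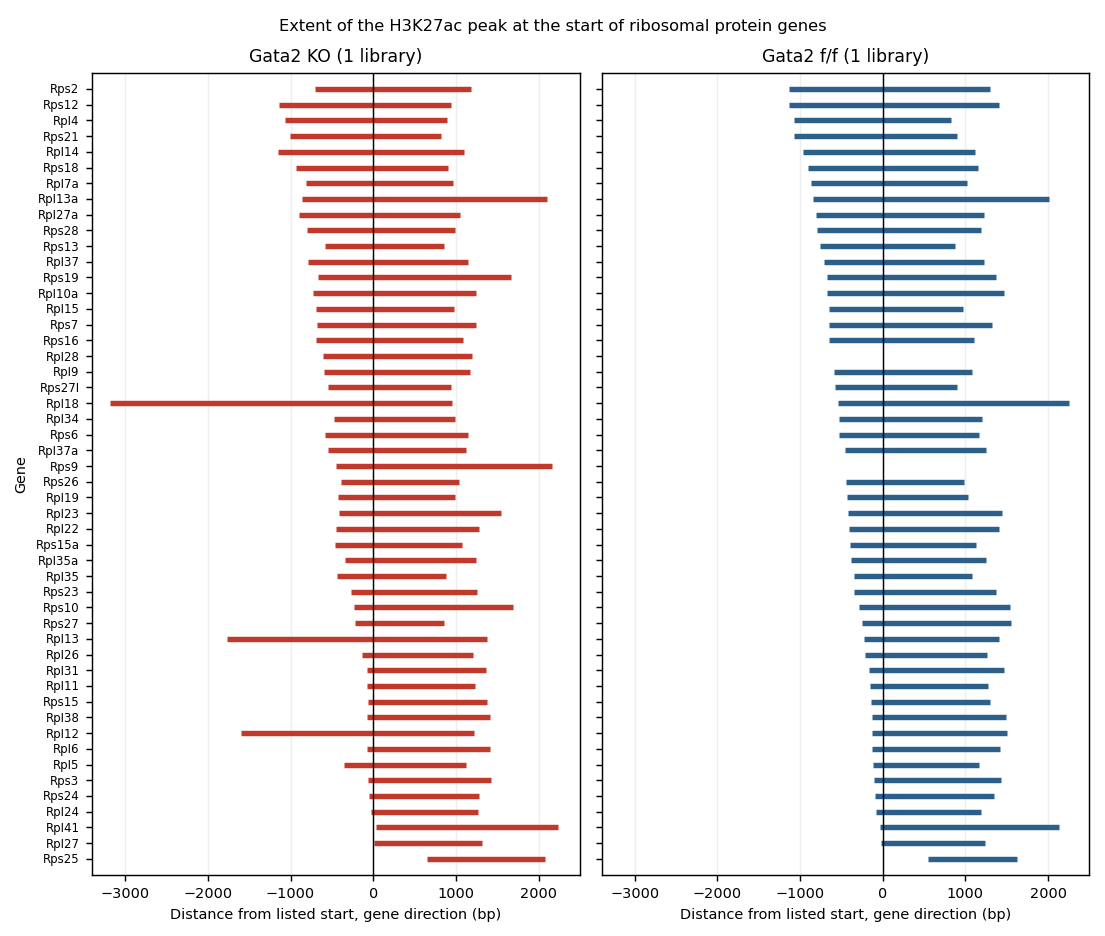
Extent of the strongest H3K27ac peak within 1000 bp of the first listed start of each ribosomal protein gene, in bp along the gene's direction (negative is upstream, the line at 0 is the start), in Gata2 KO (left) and Gata2 f/f (right), 1 library each, ordered by upstream reach in f/f. Downstream edges lie around medians of 1172 bp in KO and 1255 bp in f/f while upstream edges spread more widely, as they do over all protein-coding genes. Rps9 and Rpl28 have no bar in f/f.

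The downstream edge lay closer to the start in KO at most of these genes. Of 45 genes with the start inside a peak in both lists, 34 reached less far downstream in KO (75.6%, Wilson interval 61.3 to 85.8), against 50.8% of all 7618 such genes. The interval covers counting error only, not variation between libraries, and the measure was added after the data were seen. The median difference, KO minus f/f, was -53 bp (quartiles -119 and -1) at ribosomal protein genes and -2 bp (-57 and 62) over all genes. Among genes in the strongest 10% of both lists, 25 of 33 ribosomal protein genes reached less far in KO (75.8%, median -40 bp), against 49.4% of 2453 others (median 0 bp). The upstream edge lay closer to the start in KO at 24 of 45 genes (53.3%), against 57.7% of all genes, with a median difference of -6 bp. Rps27 (-698 bp) and Rpl18 (-1294 bp) had the greatest loss of downstream reach, and Rps19 the greatest gain (293 bp). These shifts are small beside the width of the peaks, and whether they would recur in another library is not known. The lists also differ in median -log10 p and in median fold enrichment (3.09 in KO and 3.51 in f/f), and the part of these in the result was not tested.

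**Figure D4:**
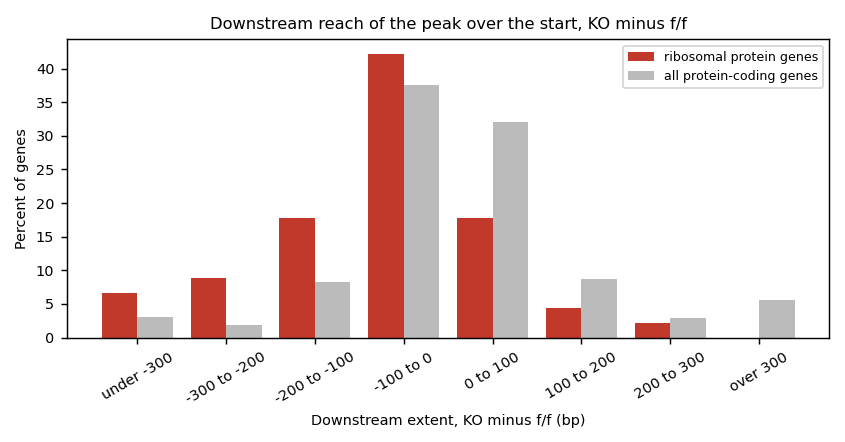
Difference in downstream reach of the peak over the start, KO minus f/f in bp, as the percent of 45 ribosomal protein genes (red) and of 7618 protein-coding genes (grey) in each band. Ribosomal protein genes lie more to the left, with 34 of 45 below 0, against 50.8% of all genes. None lies above 300 bp, where 5.62% of all genes do, a share at which none of 45 is near the background.

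Many of these genes host small nucleolar RNAs, which guide the modification of ribosomal RNA. In the gene table, 25 of the 73 (34.2%) contained at least 1 annotated snoRNA gene, 52 in all, against 1.72% of all protein-coding genes. Rpl4 held 5, and Rpl7a and Rpl13a held 4 each. Rpl7a had a leading peak of 1773 bp in KO and 1889 bp in f/f.

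Ribosomal protein genes under other kinds of name were marked likewise. Of 12 on chromosomes 1 to 19, 10 were marked in KO and 10 in f/f, and Rpl37rt and Rps27rt in neither. Among them, the stalk genes Rplp0, Rplp1 and Rplp2, Fau, whose protein is made as a fusion to a ubiquitin-like protein, Rpsa, Rps3a1, Rpl22l1, Rpl36al and the scaffold gene Rack1 stood between percentiles 78.4 (Rack1) and 97.5 (Rplp2) in KO and between 86.4 (Rack1) and 97.7 (Rpl36al) in f/f. Their median log2 width ratio was -0.16, and 9 of 10 were narrower in KO, with none past 1.5-fold. Over all genes the median was -0.01, with 5324 of 9994 narrower. Fau had 1421 bp in KO and 1900 bp in f/f. The X-linked genes Rpl10, Rpl36a, Rpl39 and Rps4x were marked in both lists at lower percentiles, from 60.0 to 71.8 in KO and from 65.6 to 75.2 in f/f. Peaks there were 2729 bp wide in KO and 2845 bp in f/f at Rpl10, and 4919 and 4579 bp at Rpl36a. The lists also differ at Xist and the Y-linked genes, whose part in these values was not tested.

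Other genes of protein synthesis were marked about as often. All 30 translation initiation factor genes listed had a gene-end peak in KO and in f/f, with median percentiles of 96.3 and 96.7. Of 12 elongation factor and related genes 10 were marked in each list (percentiles 98.0 and 97.7), and of 36 ribosome biogenesis genes 34 in KO and 35 in f/f (87.6 and 90.2). Genes of mitochondrial ribosomal proteins were marked at 73 of 78 in KO and 71 in f/f, with median percentiles of 87.5 and 88.0. Median widths were 1351 bp in KO and 1406 bp in f/f at the mitochondrial group and 1711.5 and 1637.5 bp at initiation factors. Downstream reach over the start had medians of 718 bp in KO and 763 bp in f/f in the mitochondrial group (65 genes), 965 and 986.5 bp at initiation factors (22 genes) and 1269.5 and 1361 bp at elongation factors (6 genes). The share reaching less far downstream in KO was 53.8%, 63.6% and 66.7% in these groups. It was 56% of 25 ribosome biogenesis genes, and 5 of the 8 ribosomal protein genes under other kinds of name that had a peak over the start in both lists, whose downstream medians were 1058.5 bp in KO and 1041 bp in f/f. Upstream, 7 of these 8 reached less far in KO. Initiation and elongation factors thus ranked about as high as ribosomal protein genes, while ribosome biogenesis and mitochondrial ribosomal protein genes lay nearer to the 85.0 and 84.4 of all marked genes. No test was made between the groups.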

How the data were processed

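Peak lists of 1 Gata2 KO and 1 Gata2 f/f library were used. BWA, SAMtools, MACS2 and the build mm10 are named per the submitters' processing notes. Tool versions, options, any control library and read totals were not given in the sources used here. Depth is therefore unknown. For each deposited peak the authors' caller gave a position, a score (not used in any result), a fold enrichment, which is a ratio, and p and q values as -log10. Peak starts were converted to 1-based coordinates by adding 1. Fold, -log10 p and -log10 q served to order or filter peaks inside 1 list, never between lists.

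Genes came from RefSeq (GRCm38.p6), with both ends of each gene as anchors, and first listed starts and strands from the RefSeq promoter table. Measures were computed with Python 3.11.15, numpy 2.4.6 and pandas 2.3.3 for all 20661 protein-coding genes on chromosomes 1 to 19, and the peak assignment was tested on simulated data. With 1 library per genotype no test was made. Members, lists and measures were chosen with earlier results of these data known. Full values are given for members at blank starts, marked in 1 list or neither, the 5 widest and 5 strongest per list, those of largest width ratio and the paralogues, and other members were picked for their known role or position. The reach at starts was added after the data were seen. Some members are counted but not reported here by name.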

Additional observations from a re-analysis of the deposited data

How the results depend on the processing

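No paired analysis was possible because each genotype has 1 library. For the same reason no replicate could be left out. Of 207 summary values under other settings, 192 stayed within 1.5 times (counts) or within the 95% binomial interval of the median over genes, and 15 did not. Of 743 width ratios of single genes 740 moved by less than 1.5-fold. The median log2 width ratio ran from -0.05 to -0.04, and the median downstream difference, under alternatives chosen after seeing the data, from -53 to -52.5 bp. Settings that only remove peaks or genes leave the edges of kept peaks unchanged. The small spread of these widths and edges is thus in part by construction. Median percentiles by -log10 p fall when weak peaks are removed, by construction: to 89.7 in KO and 93.4 in f/f with peaks of -log10 q 5 or more, to 88.6 and 92.3 among the strongest 20000 peaks, and to 89.1 in KO at 3-fold enrichment. The f/f width percentile was 74.2 under the same q limit and 72.6 among the strongest 20000 peaks. Without the blank starts, the number marked in a single list was 0 for KO and 0 for f/f. With starts only (54 genes) it was 0 for f/f, and 1 gene was narrower by 1.5-fold. At 3-fold enrichment it was 2 for f/f. Coverage around the genes had a median of 13.0% in KO at 3-fold enrichment, and with 25 kb flanks 8.52% in KO and 8.02% in f/f. The 3 width ratios that moved further were those of Rpl18, whose log2 width ratio of 0.57 became 1.56 with a 500 bp window and -0.02 with summed widths, and that of Rpl13a, where 0.05 became -0.81 with a 2000 bp window. The last 2 changed sign, from values short of 1.5-fold. With the 2000 bp window a stronger peak, more than 1000 bp outside Rpl13a, became its leading peak in both lists. Causes beyond these constructions were not tested. Read depth is unknown, and it limits what a missing peak can say.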
